A study of Homo sapiens with 16 samples.

Results

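The regions described here were 4745 distal stretches of DNA that carried histone H3 monomethylated at lysine 4 (H3K4me1) in every H3K4me1 library of the series. They were selected on the island calls of the 8 H3K4me1 libraries: a stretch was kept where islands of all 8 covered it, where it was at least 2 kb but under 15 kb long, lay on an autosome outside the amplified interval chr2:16000000-17000000 around MYCN, and had no start of a protein-coding transcript inside it or within 5 kb. They held 17.8 Mb, out of 32138 regions and 181 Mb that were called in at least 1 library. CUT&Tag, in which an antibody to a histone mark brings a transposase to the chromatin that carries it, had been run on BE2C, an established line of human neuroblastoma in which MYCN is amplified, so every group shared that genome. The 16 libraries mapped 2 marks, H3K4me1 and histone H3 trimethylated at lysine 27 (H3K27me3), in 4 treatments of 2 replicates each. In the knockdown experiment cells had received the control siRNA siCtrl or a single siRNA against KDM6B, siKDM6B33, for 72 h. In the compound experiment cells had received 0.1% DMSO or GSK-J4, which inhibits the KDM6 demethylases, at 2.5 µM for 72 h. Each experiment had its own controls, the results come from 1 cell line, and the libraries are bulk, so a mark on a few cells and a weak mark on all cells cannot be told apart.

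H3K4me1 is laid down by the methyltransferases KMT2C and KMT2D at enhancers, the DNA elements that bind transcription factors and act on promoters at a distance, and it is found both at active enhancers and at those that are only primed. H3K27me3 is laid down by the Polycomb complex PRC2 and is known from silenced developmental genes. KDM6B removes it. In adrenergic neuroblastoma a small circuit of transcription factors that includes HAND2, GATA3 and ISL1 binds the enhancers of its own genes and of the genes for catecholamine synthesis.

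The DNA under the H3K4me1 summits is shown for the strongest regions and for the strongest region nearest to each of 7 genes of the adrenergic circuit and of the genes the study followed. Each window holds 200 bases around the highest H3K4me1 summit, from GRCh37 (the same assembly as hg19), plus strand. Capitals mark matches on either strand to a set of short motifs. They include 3 E-boxes, which basic helix-loop-helix factors read, namely the E-box CAGCTG, the E-box with the letters CAGATG and the E-box that MYC family factors prefer, CACGTG. For GATA factors the letters were AGATAA, for homeodomain factors TAATTA as well as a longer motif in which TAAT is followed, after 3 bases of any kind, by the letters ATTA, for AP-1 the letters TGANTCA, for E2F factors TTTGGCGC, and CTCF was searched by its core. None of the summit bases lay in an annotated exon of a protein-coding gene, and the rest of each window was not checked for exons. The first 4 are the regions with the highest summits, near NOL4L, KLF13, GSE1 and TMEM106A, and the others follow in order of their summits.
NOL4L (chr20:31109705-31109904): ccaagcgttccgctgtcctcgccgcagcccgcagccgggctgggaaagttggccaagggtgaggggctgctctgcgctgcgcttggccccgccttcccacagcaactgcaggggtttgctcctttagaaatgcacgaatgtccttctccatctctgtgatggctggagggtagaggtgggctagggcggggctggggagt
KLF13 (chr15:31658210-31658409): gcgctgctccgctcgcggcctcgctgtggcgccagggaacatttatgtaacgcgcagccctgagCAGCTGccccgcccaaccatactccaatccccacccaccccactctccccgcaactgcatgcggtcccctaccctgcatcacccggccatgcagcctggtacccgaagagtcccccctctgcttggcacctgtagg
GSE1 (chr16:85429259-85429458): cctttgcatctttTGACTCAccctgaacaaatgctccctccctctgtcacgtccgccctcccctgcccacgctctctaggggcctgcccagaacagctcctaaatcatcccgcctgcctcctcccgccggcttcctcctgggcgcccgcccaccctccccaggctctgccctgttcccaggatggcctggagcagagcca
TMEM106A (chr17:41400261-41400460): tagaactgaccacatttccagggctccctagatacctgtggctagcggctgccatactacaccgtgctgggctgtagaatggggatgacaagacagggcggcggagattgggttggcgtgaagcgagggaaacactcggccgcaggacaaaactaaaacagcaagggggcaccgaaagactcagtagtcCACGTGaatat
PHOX2A (chr11:72019229-72019428): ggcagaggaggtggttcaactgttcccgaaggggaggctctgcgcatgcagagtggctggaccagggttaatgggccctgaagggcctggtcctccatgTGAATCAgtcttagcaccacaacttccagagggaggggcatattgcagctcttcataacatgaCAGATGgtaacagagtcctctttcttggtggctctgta
HAND1 (chr5:153902732-153902931): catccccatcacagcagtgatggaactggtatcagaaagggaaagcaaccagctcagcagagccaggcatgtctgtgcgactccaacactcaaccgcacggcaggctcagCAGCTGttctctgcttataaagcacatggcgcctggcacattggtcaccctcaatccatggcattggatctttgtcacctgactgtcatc
KLF7 (chr2:208175161-208175360): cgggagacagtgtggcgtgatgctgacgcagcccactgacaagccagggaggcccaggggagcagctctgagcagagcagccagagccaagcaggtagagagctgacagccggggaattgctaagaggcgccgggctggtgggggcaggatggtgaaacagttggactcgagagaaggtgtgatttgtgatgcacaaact
ZNF536 (chr19:30878358-30878557): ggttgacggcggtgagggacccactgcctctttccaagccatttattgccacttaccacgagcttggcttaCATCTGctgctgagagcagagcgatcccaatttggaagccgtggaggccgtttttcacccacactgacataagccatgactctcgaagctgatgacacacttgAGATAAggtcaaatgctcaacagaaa
TBX2 (chr17:59222618-59222817): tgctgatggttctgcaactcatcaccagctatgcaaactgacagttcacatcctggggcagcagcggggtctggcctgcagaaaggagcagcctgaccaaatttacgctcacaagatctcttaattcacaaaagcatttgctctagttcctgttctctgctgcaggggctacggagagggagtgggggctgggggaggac
CDKN1A (chr6:36635046-36635245): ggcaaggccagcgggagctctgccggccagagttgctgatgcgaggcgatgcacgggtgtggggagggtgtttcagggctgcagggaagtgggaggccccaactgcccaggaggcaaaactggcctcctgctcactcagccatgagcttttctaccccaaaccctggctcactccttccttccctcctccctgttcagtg
CDK6 (chr7:92397983-92398182): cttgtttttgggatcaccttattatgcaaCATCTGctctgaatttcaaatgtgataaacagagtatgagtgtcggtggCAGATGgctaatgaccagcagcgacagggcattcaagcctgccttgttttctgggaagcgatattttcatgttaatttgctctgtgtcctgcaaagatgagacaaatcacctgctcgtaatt
The summits near NOL4L, KLF13, GSE1, ZNF536 and CDK6 lay in introns of those genes. That near PHOX2A lay in an intron of CLPB and that near TBX2 in an intron of BCAS3. The summits near TMEM106A, HAND1 and CDKN1A lay outside protein-coding genes, and so did that near KLF7, which lay within a long non-coding RNA gene. An E-box of one of the 3 kinds was found in 6 of the 11 windows, and no motif of the set in 4 of them, those near NOL4L, KLF7, TBX2 and CDKN1A.

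In length the 4745 regions ran from 2000 to 14800 bp, with a median of 3000 bp and quartiles of 2400 and 4200 bp. The nearest protein-coding start was 43280 bp away at the median, with quartiles of 17373 and 106675 bp. By distance, 28.9% of the regions lay within 20 kb of a start, 44.2% between 20 and 100 kb, 25.4% between 100 and 500 kb and 1.45% farther still. Introns of protein-coding genes held 59.4% of their length, against 40.7% of all autosomal windows, exons held 3.79% and stretches between genes 24.4%. The gene of the nearest start contained 47.3% of the regions. For all regions, inside that gene or not, the nearest gene is a label of position and not an assigned target. A start of a long non-coding RNA lay inside 410 of them. At the edges of the rule, 534 regions were exactly 2000 bp long, and 563 distal stretches of 1800 bp fell just short of it. At the upper edge 9 regions had a length in the last kb below 15 kb, and 14 distal stretches in the first kb above it were left out. The distance limit had 133 regions in the first kb past 5 kb from a start and 153 stretches in the last kb up to it.

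The regions were spread over all 22 autosomes at 1.647 per Mb. Chromosome 17 had the most per Mb, 3.31, followed by chromosome 22 with 2.81 and chromosome 16 with 2.59. Chromosome 18 had 0.487 and chromosome 4 had 0.722. These chromosomes were ordered in a like way by H3K4me1 as a whole: islands of at least 1 library covered 12.2% of chromosome 17 and 2.41% of chromosome 18. The distal regions made up 11.0% of that covered length on chromosome 17, 7.06% on chromosome 18 and 9.83% on all autosomes. Chromosome 15 had the highest such share, 13.5%.

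The 1-kb windows centred on the strongest summit, which 4715 of the regions had, were rich in G and C, with a median of 52.5%. The median was 40% over 2684312 autosomal windows of the same length, 46.9% in distal regions called in 1 to 7 libraries and 60.9% in promoter-near regions (the 2304 regions of the same size called in all 8 libraries with a protein-coding start inside or within 5 kb). CAGCTG was present in 60.8% of the windows against 29.3% of all autosomal windows, CAGATG in 64.0% against 49.7% and CACGTG in 17.9% against 8.84%. The CTCF core was present in 13.1% against 7.34%. TGANTCA was at 29.1% against 27.8%. Distal regions called in 1 to 7 libraries were closer to the regions than the genome was for the 3 E-boxes, with CAGCTG at 50.6%, CAGATG at 60.8% and CACGTG at 14.4%, and they had TGANTCA at 30.7% and the CTCF core at 11.1%. The motifs made mostly of A and T were less frequent than in the genome, AGATAA at 42.1% against 53.5%, TAATTA at 21.9% against 35.1% and the longer homeodomain motif at 3.22% against 4.98%, and in promoter-near windows they stood lower again, at 22.01%, 8.68% and 1.18%. TTTGGCGC was in 0.594% of the windows against 0.224% of all autosomal windows. It was in 0.549% of those in distal regions called in 1 to 7 libraries and in 1.22% of promoter-near ones. In promoter-near windows, which were richer in G and C, CAGATG was at 52.9%, CAGCTG at 59.2% and CACGTG at 20.1%. TGANTCA was at 20.7% there and the CTCF core at 19.5%. These shares are descriptions of letters, and the part of base composition in them was not tested.

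Before the levels are read, some facts of the libraries need to stand beside them. The read depth is unknown, since no read totals were used, and bears on the data only through the peaks: the lowest background the peak caller used was 0.0483 to 0.107 tags for the H3K4me1 libraries and 0.0298 to 0.0539 for the H3K27me3 libraries, and a library covered 2.34% to 3.94% of the autosomes with H3K4me1 islands and 1.85% to 3.10% with H3K27me3 islands. The H3K27me3 libraries of the compound experiment stood apart from those of the knockdown experiment, controls included. Of their island length, 65.7% to 79.5% lay inside an H3K4me1 island of at least 1 library, against 16.7% to 26.9% in the knockdown experiment. They also held H3K27me3 where no H3K4me1 island was called in any library: of 16.5 Mb in 4219 such reference regions, at least 2 kb long and called in all 4 H3K27me3 libraries of the knockdown experiment, they covered 46.4% to 55.5%. Within the compound experiment the H3K27me3 library GSK-J4 replicate 1 stood apart again, with 16531 islands of median length 3000 bp where the other 3 had 7123 to 7941 islands of median length 6600 to 7400 bp. Treatment was compared only within an experiment, and the main comparisons that include this library are given with and without it.

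H3K4me1 at the regions is given as a description, since the same islands chose them. The height of a region was read as its highest narrow-peak summit, in multiples of the genome background of the same library. In siCtrl cells the median height was 244 in replicate 1 and 247 in replicate 2. After siKDM6B33 it was 159 and 162, so both knockdown libraries were below both controls. It was 193 and 228 in DMSO and 183 and 179 with GSK-J4, where both treated libraries were below both controls and the means differed by less than the 2 controls did. A summit was found in 96.8% to 97.3% of the regions in siCtrl, 94.3% to 94.6% after siKDM6B33 and 84.8% to 87.5% in the 4 libraries of the compound experiment, so the medians leave out a different share in each. Where a median height over all libraries is given below, a library without a summit in the region counts as 0 instead. In promoter-near regions the height was 222 and 224 in siCtrl and 243 and 238 after siKDM6B33, a shift the other way. Region by region, the height was lower in both siKDM6B33 libraries than in both siCtrl libraries for 3078 of the 4745 distal regions (64.9%, where 56.6% of all 7144 stretches of 2 kb or more called in all 8 libraries were) and higher for 665 (14.0%, against 23.3%). For GSK-J4 against DMSO it was lower for 1575 (33.2%, against 33.9%) and higher for 663 (14.0%, against 13.7%). Nothing is read from these counts, as the rule used both contrasts.

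The height also depends on how it is scaled. The mean of the siKDM6B33 medians was 0.653 times that of siCtrl as a multiple of the genome background, but 0.974 times as the fold enrichment over the local background that the peak caller reported. The genome background itself was 0.107 and 0.105 tags in siKDM6B33 and 0.0902 and 0.0849 in siCtrl, and its part in the difference was not tested. The islands around the regions were also narrower after knockdown: the island that held a region was 7200 and 6600 bp wide at the median in siCtrl and 5400 bp in both siKDM6B33 libraries, 5200 and 4800 bp in DMSO and 5000 and 4800 bp with GSK-J4.

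**Figure D1:**
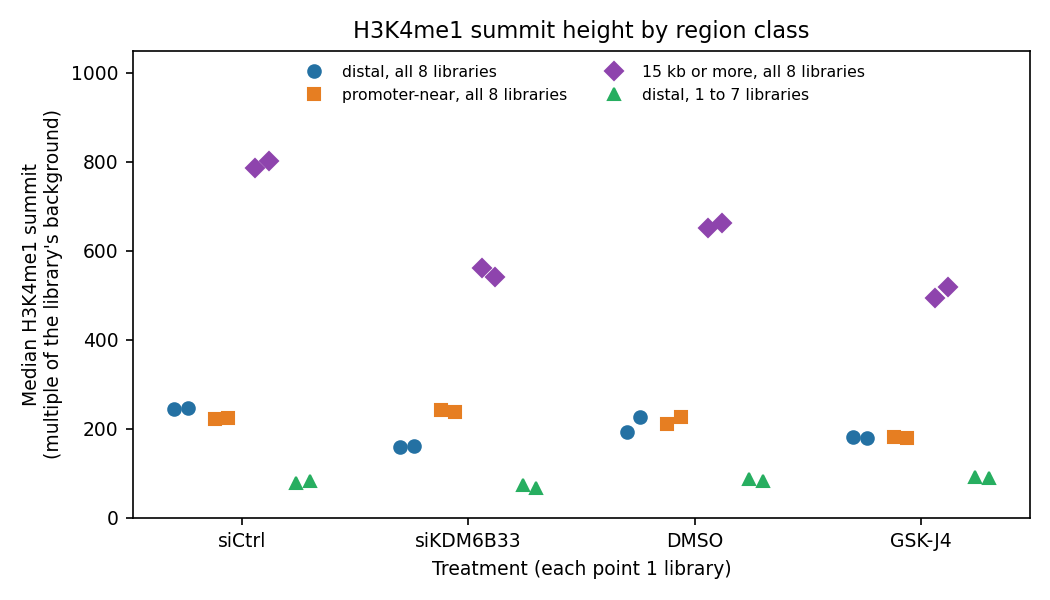
Median height of the highest H3K4me1 summit per region (multiples of the library's genome background, vertical axis) for each H3K4me1 library by treatment, 1 point a library, in 4 classes of region. The distal regions of all 8 libraries (circles) sit at 244 and 247 in siCtrl and at 159 and 162 in siKDM6B33, while promoter-near regions (squares) sit at 222 to 243 in those 4 libraries. Regions of 15 kb or more are highest and distal regions of 1 to 7 libraries lowest in every library.

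The gene lists describe which of the listed genes the regions lay nearest to, and enrichment was not tested. Over the 18877 autosomal protein-coding genes, 2250 (11.9%) were nearest to at least 1 region, 1302 of them to exactly 1. Of 23 regulators listed for the adrenergic state (below, the adrenergic factors), 19 were (82.6%), and 7 of 13 genes of catecholamine synthesis and secretory granules, 8 of 14 receptor tyrosine kinases and 19 of 32 axon guidance genes. Of 21 genes of the mesenchymal state, the other state neuroblastoma cells can take, 5 were (23.8%), and of 30 E2F target and cell cycle genes 4 (13.3%). Genes with much empty DNA around them can collect more regions, so the count was also set against the stretch of chromosome nearest to each gene's starts. That stretch was 312 kb at the median for the adrenergic factors and 59.4 kb for all genes. Per Mb of it there were 4.86 regions for the adrenergic factors, 11.8 for the catecholamine and granule genes, 7.33 for the receptor kinases, 2.78 for the mesenchymal genes, 2.17 for the axon guidance genes and 1.84 for the cell cycle genes, against 1.647 over all genes. Neuronal and sympathetic markers of the labelled cell type had a region in 9 of 12 cases, and markers of other cell types in 6 of 23, namely EPCAM and CDH5 with 3 regions each, APOB with 2, and ACTA1, KRT8 and COL1A1 with 1 each. The regions of ACTA1, a muscle actin, and COL1A1, a collagen of connective tissue, had median H3K4me1 heights of 517 and 497 over the libraries, above the 184 of all regions, while KRT8 was at 185, CDH5 at 155 and APOB and EPCAM at 137, and the median over the list was 178. The other 17 markers, among them ALB and MYOD1, had none. For comparison, 11 of 80 ribosomal protein genes and 2 of 380 olfactory receptor genes were nearest to a region. Per Mb of nearest chromosome the neuronal markers had 5.97 regions, the markers of other cell types 2.84, the ribosomal protein genes 2.76 and the olfactory receptor genes 0.0512. By this measure the axon guidance and cell cycle genes were below the ribosomal protein genes and the mesenchymal genes lay beside them.

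**Figure D2:**
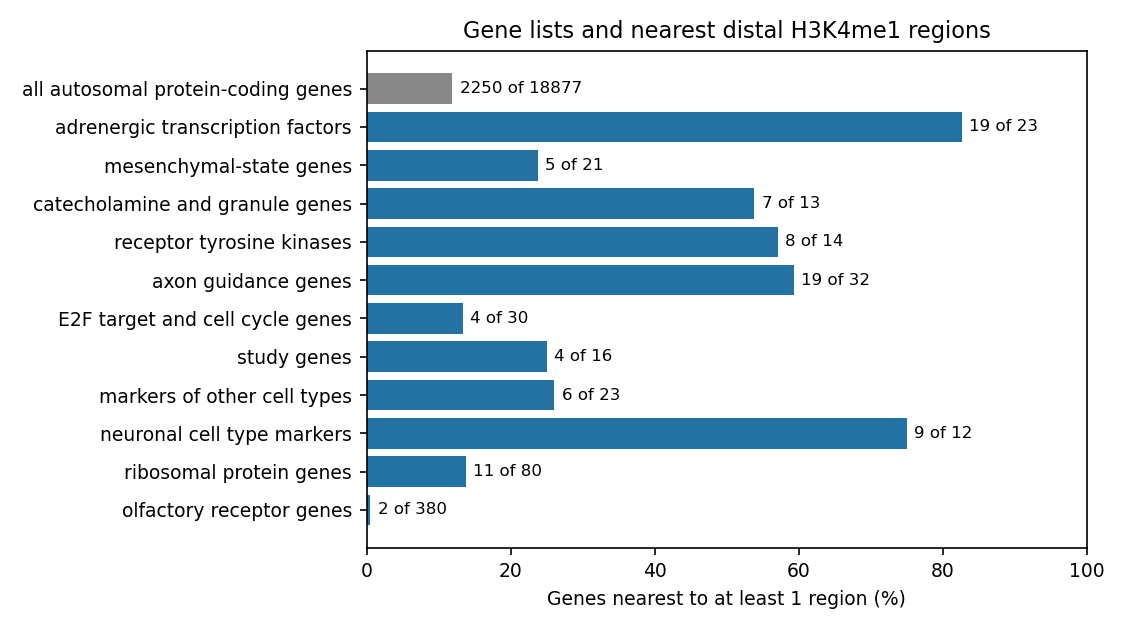
Share of each gene list that was the nearest gene of at least 1 distal region (horizontal axis, percent), with the counts beside the bars and all autosomal protein-coding genes in grey. The list labelled adrenergic transcription factors reaches 19 of 23 and the cell cycle genes 4 of 30, against 2250 of 18877 over all genes. Lists differ in how much chromosome lies nearest to their genes.

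Among the genes with the most regions were CIBAR2 with 23, TLE3 with 20, GSE1 and ZMIZ1 with 19 each, and ASTN2, AUTS2 and ZFHX3 with 15 each, followed by NECTIN1 with 14 and 6 genes with 13 (CADM1, HDAC4, JARID2, KIF26B, PLXNA4 and RET). CIBAR2 and GSE1 are neighbours. Their 42 regions filled 36.6% of the 567 kb interval chr16:85122201-85689200, and 37 of them lay inside GSE1, which codes for a subunit of a histone deacetylase complex, while none lay inside CIBAR2. TLE3, a corepressor of the Groucho family, had its 20 regions across chr15:70185201-70680400, mostly outside the gene. ZMIZ1, a transcriptional coactivator, contained 16 regions. RET, the receptor for ligands of the GDNF family, had 13 regions between chr10:43427601 and 43602000, of which the gene contained 2. MYC had 12 on chromosome 8, 60810 to 310210 bp from its start. In all, 203 genes had at least 5 regions, and these held 1527 of the 4745.

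The region with the highest H3K4me1 was chr20:31109001-31113400, with its highest summit in an intron of NOL4L. Its height was 2051 and 1355 in siCtrl, 1319 and 1265 after siKDM6B33, 2075 and 2173 in DMSO and 1663 and 1592 with GSK-J4. Second was chr15:31655801-31660600 in KLF13, a Krüppel-like zinc finger factor, at 1397 and 1390 in siCtrl, 1066 and 932 after siKDM6B33, 1846 and 1842 in DMSO and 1462 and 1413 with GSK-J4. In both regions each treated library was below both of its controls. The other 8 of the highest 10 were nearest to GSE1, TMEM106A, CHMP6, RTN4R (the Nogo receptor, which limits axon growth), SLC38A10, NEFL (the light neurofilament chain), BCDIN3D and PLXNA1 (a semaphorin receptor). The region near NEFL went the other way in the knockdown experiment, at 1142 and 1166 in siCtrl and 1244 and 1304 after siKDM6B33. That near TMEM106A, chr17:41399801-41402200, was uneven between replicates, 1608 in siKDM6B33 replicate 1 and 343 in replicate 2.

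Among the adrenergic factors the highest region was nearest to PHOX2A, a homeodomain factor of sympathetic and other autonomic neurons. It lay at chr11:72016601-72023800, 61381 bp from the start, and its height was 1187 and 1049 in siCtrl, 851 and 904 after siKDM6B33, 739 and 786 in DMSO and 402 and 483 with GSK-J4. The treated libraries were below the controls in both experiments. Another 3 regions followed within chr11:72025401-72048200, and all 4 lay 61381 to 88981 bp from the PHOX2A start. HAND1, a basic helix-loop-helix factor related to HAND2, also had 4, of which the highest, at chr5:153900001-153908000, was at 965 and 872 in siCtrl and 524 and 362 after siKDM6B33. KLF7, a Krüppel-like factor of developing neurons, had the most regions of the list, 8. ZNF536 had 6, and ISL1, TBX2 and SIX3 had 5 each. HAND2 had 1. Its region, chr4:174439801-174445200, had higher values after knockdown, 177 and 236 in siCtrl and 337 and 343 after siKDM6B33, and so did that of GATA3 at chr10:8678601-8684200, 266 and 247 in siCtrl and 337 and 324 after siKDM6B33. Higher values after knockdown were also found at the MEIS2 region chr15:37513201-37515800, with 366 and 306 in siCtrl and 711 and 733 after siKDM6B33, and at 1 of the 2 TFAP2B regions, chr6:50793201-50795800, with 189 and 177 in siCtrl and 440 and 428 after siKDM6B33. The other TFAP2B region, chr6:50798801-50803600, had lower values after knockdown, 199.6 and 165 in siCtrl and 112 and 105 after siKDM6B33. Of the 56 regions of the list, 15 were higher in both knockdown libraries than in both controls and 28 were lower, where of all 4745 regions 665 (14.0%) were higher and 3078 (64.9%) lower. The median height over the list was 211 and 236 in siCtrl and 243 and 238 after siKDM6B33, where that of all regions was lower after knockdown. GATA2, MEIS1, SATB1 and LIN28B had none.

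Of the genes the study followed, 4 of 16 had a region: CDK6, a kinase that phosphorylates RB1, had 2, and CDKN1A, an inhibitor of such kinases, EZH2, the methyltransferase of PRC2, and NAV2, a neuron navigator, had 1 each. The CDKN1A region, chr6:36634201-36636400, had heights of 355 and 318 in siCtrl, 103 and 162 after siKDM6B33, 281 and 269 in DMSO and 311 and 304 with GSK-J4. Its knockdown libraries were below their controls, and its GSK-J4 libraries above theirs. The larger CDK6 region, chr7:92395001-92400200, was at 388 and 318 in siCtrl and 393 and 390 after siKDM6B33, and at 246 and 186 in DMSO and 183 and 215 with GSK-J4, where the groups overlapped. The EZH2 region was at 122 and 106 in siCtrl and 150 and 171 after siKDM6B33. KDM6B, MYCN, E2F8, CCNE1, SUZ12, EED, CDK4 and RB1 had none, MYCN by the rule itself.

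The H3K27me3 libraries took no part in the choice of the regions. Their cover was measured as the percent of the summed 17.8 Mb that lay inside H3K27me3 islands. In siCtrl it was 3.48% in replicate 1 and 3.39% in replicate 2, and after siKDM6B33 it was 4.14% and 3.99%. In DMSO it was 63.1% and 67.4%, and with GSK-J4 it was 88.9% and 74.5%. The 4 libraries of the knockdown experiment were all below 5% and the 4 of the compound experiment all above 60%, although islands took 1.85% to 3.10% of the autosomes in the former and 2.01% to 2.50% in the latter. Relative to that share the regions were covered 1.81 to 1.88 times as densely as the autosomes in siCtrl, 1.32 to 1.33 times after siKDM6B33, 30.2 to 31.4 times in DMSO and 29.8 to 38.6 times with GSK-J4.

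**Figure D3:**
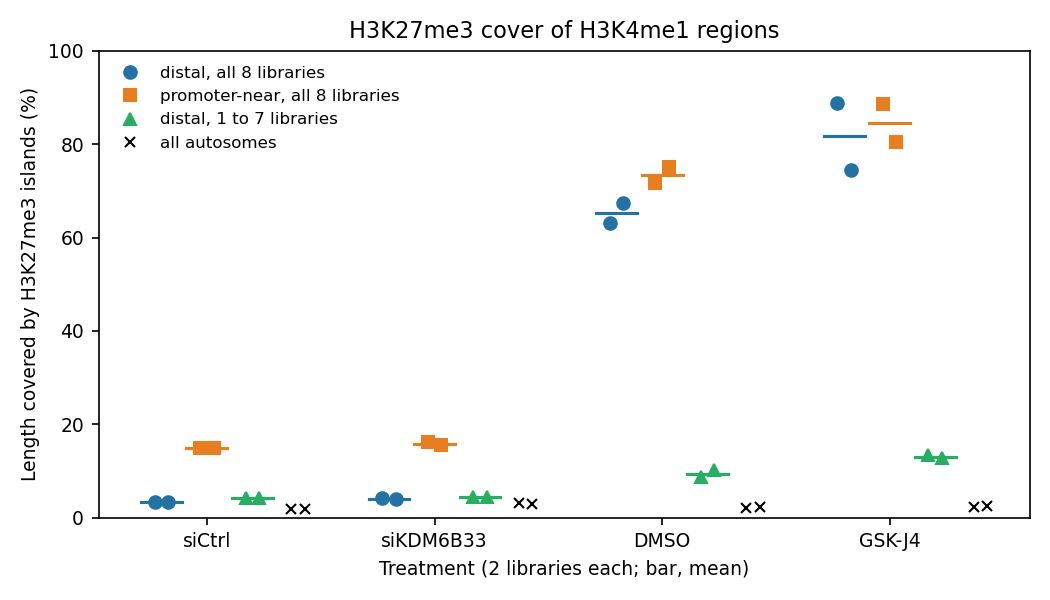
Percent of summed length covered by H3K27me3 islands (vertical axis) in each H3K27me3 library by treatment, with bars at the means of 2 libraries, for 3 classes of H3K4me1 region and all autosomes. The distal regions of all 8 libraries (circles) lie at 3.39% to 4.14% in the knockdown experiment and at 63.1% to 88.9% in the compound experiment, while the autosomal share (crosses) stays between 1.85% and 3.10%.

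Cover was higher in the compound experiment (73.5% ± 11.3, SD, n = 4) than in the knockdown experiment (3.75% ± 0.371, SD, n = 4) by 69.7 percentage points (exact two-sided permutation test, p = 0.0286, the smallest this design allows, and 0.1 after Benjamini-Hochberg adjustment over the 7 tests of H3K27me3). Without GSK-J4 replicate 1 the difference was 64.6 points, and between the control libraries alone 61.8 points, where an exact permutation test of 2 against 2 libraries cannot go below p = 0.33. Compound treatment as such is not what this compares, since DMSO is in it, and whatever else differed between the experiments cannot be told apart here.

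Within experiments the differences were small or uneven. Knockdown cover exceeded siCtrl by 0.629 points (4.06% ± 0.108 against 3.43% ± 0.0685, SD, n = 2 each, exact permutation p = 0.33, adjusted 0.33). The direction turned when islands of highest score were taken to an equal covered length of 53.4 Mb in every library, where knockdown was lower by 0.312 points (a difference of -0.31). GSK-J4 cover exceeded DMSO by 16.5 points (81.7% ± 10.2 against 65.2% ± 3.03, SD, n = 2 each, exact permutation p = 0.33, adjusted 0.33). Without GSK-J4 replicate 1 it exceeded DMSO by 9.25 points, and without GSK-J4 replicate 2 by 23.7 points. Among regions of 5 kb or more GSK-J4 exceeded DMSO by 3.36 points and knockdown exceeded siCtrl by 1.21 points. At the equal covered length GSK-J4 exceeded DMSO by 12.4 points on average (exact permutation p = 0.667), with 57.8% and 55.04% in DMSO, 80.8% in GSK-J4 replicate 1 and 56.8% in replicate 2, so replicate 2 lay between the controls and the excess rested on replicate 1. With the islands as deposited both treated libraries were above both controls in each contrast, and 2 against 2 libraries cannot pass 0.05. The p-values measure the spread between these libraries, which may be technical.

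The narrow peaks as deposited gave the same order of the groups. An H3K27me3 summit lay in 8.98% and 8.68% of the regions in siCtrl, 11.4% and 9.55% after siKDM6B33, 44.7% and 51.4% in DMSO and 75.1% and 59.8% with GSK-J4. The treated mean was higher by 1.63 points in the knockdown experiment (10.5% ± 1.3 against 8.83% ± 0.209, SD, n = 2 each) and by 19.4 points in the compound experiment (67.4% ± 10.8 against 48.1% ± 4.77, SD, n = 2 each), each with an exact permutation p of 0.33 and an adjusted 0.33. With only peaks that reached a −log10 q of 5, the knockdown difference was 0.221 points (exact permutation p = 0.667) and the groups overlapped. Without siKDM6B33 replicate 1 it was 0.717 points, and without GSK-J4 replicate 1 the GSK-J4 difference was 11.7 points. In the compound experiment these summits fell on the H3K4me1 summits of the same regions: the median distance to the nearest H3K4me1 summit of the same treatment and replicate was 14 to 16 bp, and 82.0% to 87.7% lay within 200 bp. In the knockdown experiment the median was 102 and 77.5 bp in siCtrl and 30 and 39 bp after siKDM6B33, with 61.0% to 73.9% within 200 bp. The regions held 1.07 to 1.34 H3K4me1 summits per kb in the knockdown experiment and 0.653 to 0.753 in the compound experiment.

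The cover peaked on the regions themselves. At the region centre an H3K27me3 island was present in 53.6% and 58.1% of regions in DMSO and in 91.4% and 65.7% with GSK-J4. At 10 kb to the left it was 16.1% to 20.5% in these 4 libraries, and at 20 kb 13.3% to 16.8%, still above the 2.02% to 2.23% at that distance in the knockdown experiment. The knockdown experiment had a low peak of its own, 3.50% to 4.19% at the centre. GSK-J4 replicate 1 had the highest centre of the 8.

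**Figure D4:**
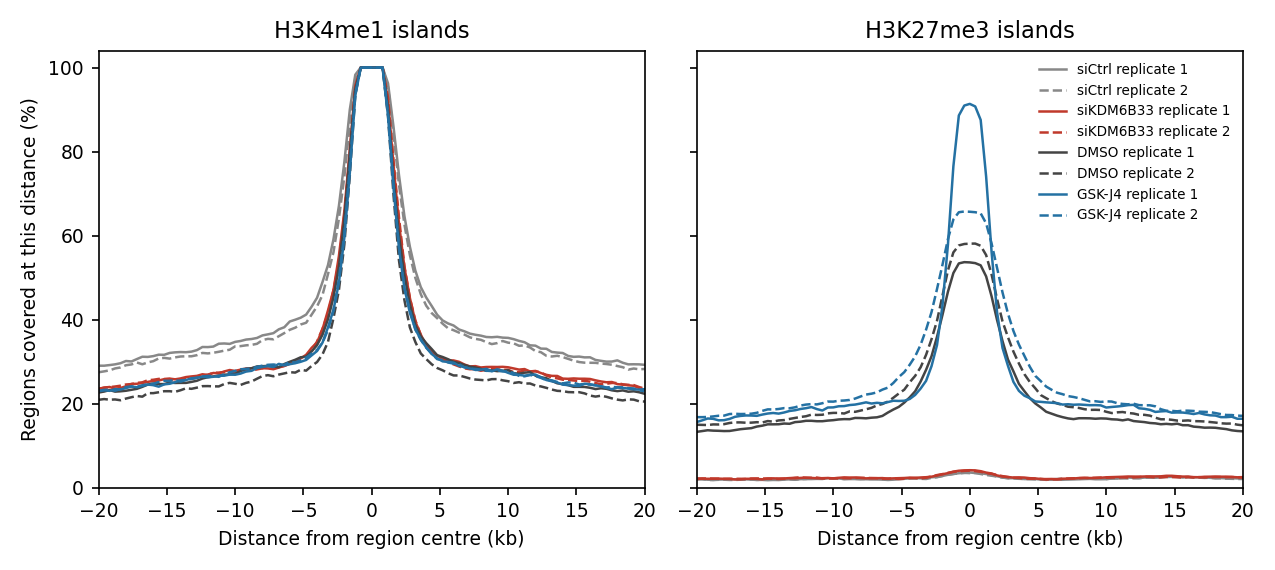
Share of the 4745 regions covered by an island (vertical axis, percent) against distance from the region centre (kb), 1 line a library, H3K4me1 on the left and H3K27me3 on the right. H3K4me1 is at 100% at the centre because islands chose the regions. H3K27me3 rises to 53.6% to 91.4% at the centre in the compound experiment and stays under 5% in the knockdown experiment.

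The share of regions with H3K27me3 changed with H3K4me1 height, and not alike in the 2 experiments, which is given as a description. The regions were ranked by their mean H3K4me1 height in the controls of the same experiment and split into 5 sets of 949. In the compound experiment the lowest set was touched by an H3K27me3 island in 25.3% and 29.8% of regions in DMSO and the highest set in 96.6% and 97.7%. With GSK-J4 replicate 2 these shares were 39.5% and 99.1%, and with GSK-J4 replicate 1 they were 80.7% and 100%. The second lowest set was below the lowest in DMSO, at 22.8% and 28.0%, and in GSK-J4 replicate 2, at 35.8%. In GSK-J4 replicate 1 it was above it, at 91.4%. In the knockdown experiment the lowest set was touched most often, in 8.01% of regions in both siCtrl libraries and in 8.85% and 8.75% after siKDM6B33, and the highest set in 3.06% to 4.32%. Region length rose with height as well, from a median of 2600 bp in the lowest set to 4600 bp in the highest in both experiments, and its part was not tested. As a percent of length, cover in DMSO was 28.9% and 32.9% in the lowest set and 93.4% and 95.4% in the highest. In siCtrl it was 8.86% and 8.83% in the lowest set and 2.24% and 1.98% in the highest.

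**Figure D5:**
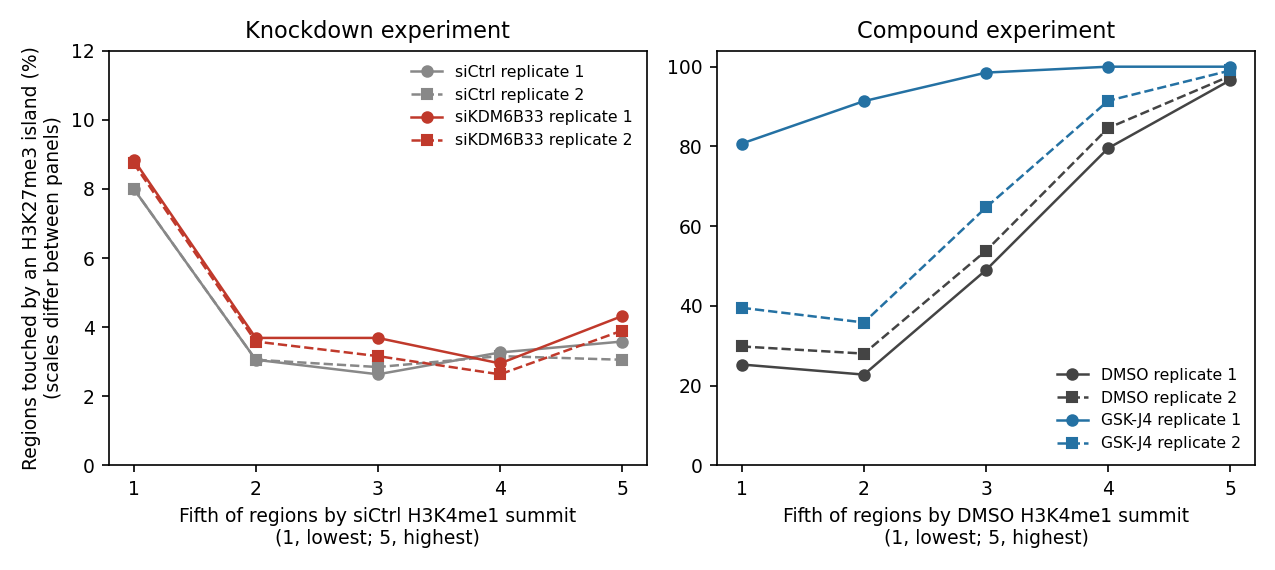
Share of regions touched by an H3K27me3 island (vertical axis, percent, with different scales) in 5 sets of 949 regions ordered by H3K4me1 height in the controls of the same experiment, 1 line a library. In the knockdown experiment (left) the lowest set stands out at 8.01% to 8.85%. In the compound experiment (right) the DMSO lines start at 25.3% and 29.8% and dip to 22.8% and 28.0% in the second lowest set. They then climb to 96.6% and 97.7%.

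The distal regions were less covered by H3K27me3 than promoter-near regions in 7 of 8 libraries. Promoter-near cover was 15.05% and 15.02% in siCtrl, 16.1% and 15.7% after siKDM6B33, 71.7% and 75.1% in DMSO and 88.7% and 80.5% with GSK-J4, and GSK-J4 replicate 1 was the exception, where the distal regions were higher by 0.247 points. The mean difference was -8.63 points (exact two-sided sign-flip permutation test over 8 libraries, p = 0.0156, adjusted 0.1), or -11.7 points within the knockdown experiment (p = 0.125) and -5.53 points within the compound experiment (p = 0.25), where 4 libraries cannot go below 0.125 in this permutation test. Without GSK-J4 replicate 1 the value within the compound experiment was -7.46 points. Among regions of 5 kb or more the difference was -4.30 points and p = 0.0859 in the same exact permutation test. At that length the classes were close in the compound experiment. Distal against promoter-near cover was 89.5% against 88.6% and 92.1% against 92.3% in DMSO. With GSK-J4 it was 92.8% against 92.6% and 95.5% against 95.95%. In siCtrl it was 3.32% against 12.1% in replicate 1. Against 17341 distal stretches of the same size called in 1 to 7 H3K4me1 libraries, the regions were covered 0.676 points less within the knockdown experiment (a difference of -0.676 ± 0.233, SD, n = 4 libraries, exact permutation p = 0.125) and 62.2 points more within the compound experiment (± 9.41, SD, n = 4, p = 0.125), or 57.7 points more without GSK-J4 replicate 1. Over all 8 libraries that difference was 30.8 points with p = 0.125 in the exact permutation test, adjusted 0.292. Such stretches can lie directly beside the regions. H3K4me1 islands covered 24.3% to 34.1% of their length in the compound libraries and 37.9% to 56.95% in the knockdown libraries. The regions had 100% in every library by the rule, and the part of this in the difference was not tested. None of the 7 tests of H3K27me3 passed 0.05 after adjustment.

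Region by region, 4480 of the 4745 (94.4%, where 88.9% of all 7144 stretches were) held no H3K27me3 island in any library of the knockdown experiment, and 160 (3.37%, against 8.08%) held one in all 4. In the compound experiment 234 (4.93%, against 5.03%) held none and 2243 (47.3%, against 51.3%) held one in all 4. Both DMSO libraries and GSK-J4 replicate 2, without GSK-J4 replicate 1, touched 2250 (47.4%, against 51.5%), and 1327 (28.0%, against 25.6%) held no island in any of these 3 libraries. The regions touched in all 4 compound libraries and in none of the knockdown experiment numbered 2042 (43.03%, against 42% of all stretches), and 145 (3.06%, against 7.5%) were touched in all 8.

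The 160 regions with H3K27me3 throughout the knockdown experiment were spread over 121 nearest genes. Their median length was 3400 bp against 3000 bp in the 4480 without, their median distance to a start 25519 bp against 44148 bp, and their median H3K4me1 height 161 against 185. TSNARE1 on chromosome 8 had 7 of them, and FAM53A, LMX1B and ZNF703 had 4 each. At LMX1B, a LIM homeodomain factor of dopaminergic and serotonergic neurons, the region chr9:129387201-129391200 was fully covered by H3K27me3 in all 8 libraries, as were its neighbours at chr9:129398401-129404000 and chr9:129412001-129415200. SSTR5, a somatostatin receptor, had 3, and the one at chr16:1075001-1081400 was covered over 56.2% in both siCtrl libraries, 75% and 96.9% after siKDM6B33 and 100% in all 4 libraries of the compound experiment.

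After siKDM6B33, 30 regions (0.632%, against 0.742% of the 7144 stretches) had an H3K27me3 island in both treated and neither control library, and 11 (0.232%, against 0.294%) the reverse. Both shares were close to those of the background. The widest gains lay nearest to C14orf132, ETS2, VSTM2L, KDM4B, NNMT, WDR25, BCDIN3D, SHB and PAPOLB. At C14orf132 the region chr14:96552601-96565600 had a cover of 76.9% and 84.6% after siKDM6B33 and none in siCtrl. The region of ETS2, a transcription factor of the ETS family, at chr21:40356201-40364200 had 100% and 85% after siKDM6B33 and none in siCtrl. KDM4B, a histone demethylase that acts on H3K9, had 2 such regions. In DMSO, the control of the other experiment, the C14orf132 region was covered over 95.4% and 100% and the ETS2 region over 92.5% and 100%. Of the widest gains only the SHB region had no H3K27me3 island in either DMSO library.

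With GSK-J4, 347 regions (7.31%, against 6.7%) had an H3K27me3 island in both treated and neither DMSO library, and 1 (0.0211%, against 0.042%) the reverse. With GSK-J4 replicate 2 as the only treated library the first count was 357, or 7.52%, against 7.0% of all stretches. The widest gains lay nearest to NDST1, NFAM1, PAX2, ARL6, OTULINL, KCNE3, a gene listed as ENSG00000258989, BARHL1, ATP11A and SLC19A1. The region near NDST1, an enzyme of heparan sulfate synthesis, at chr5:149865601-149871800 was covered in full in both GSK-J4 libraries and in no other. Those near PAX2 and BARHL1, both developmental transcription factors, had 34.1% and 58.1% in GSK-J4 replicate 1 and 100% in replicate 2. The single loss lay nearest to SRRM4, a neuronal splicing factor, at chr12:119440601-119443200, with full cover in both DMSO libraries and none with GSK-J4.

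The genes of the lists showed the same division. At the 56 regions of the adrenergic factors, H3K27me3 covered 0.740% and 0.648% in siCtrl, 1.76% and 1.11% after siKDM6B33, 68.4% and 69.4% in DMSO and 93.4% and 71.1% with GSK-J4. The 4 PHOX2A regions and the 4 HAND1 regions had none in the knockdown experiment, and in the compound experiment PHOX2A had 77.8% to 100% and HAND1 95.5% to 100%. The TCF3 region, chr19:1667201-1669200, was the 1 adrenergic region with H3K27me3 throughout the knockdown experiment, at 80% and 70% in siCtrl and 60% in both siKDM6B33 libraries. The catecholamine and granule genes had 79.8% and 82.4% in DMSO and 93.8% and 76.7% with GSK-J4, and none in siCtrl. Among them TH, the rate-limiting enzyme of catecholamine synthesis, and DDC, the next enzyme, each had 2 regions, with H3K27me3 over 97.7% to 100% in the compound experiment. SCG2, a granule protein with 4 regions, had less, 30% in both DMSO libraries, 94% in GSK-J4 replicate 1 and none in replicate 2. CHGA, a core protein of secretory granules, had 9 regions, with none in siCtrl, 6.03% and 5.53% after siKDM6B33, 79.4% and 83.4% in DMSO and 89.95% and 79.9% with GSK-J4. At RET the 13 regions had none in the knockdown experiment and 73.3% to 89.4% in the compound experiment, and at ALK, a receptor kinase mutated in some neuroblastomas, the 9 regions had none and 53.2% to 91.1%. The 14 regions of the mesenchymal genes had none in the knockdown experiment, 39.2% and 46.8% in DMSO and 72.3% and 46.4% with GSK-J4. TEAD1, a transcription factor of the Hippo pathway, held 7 of those 14. The 5 regions of the E2F target and cell cycle genes ranged from 20.5% to 84.6% in the compound experiment. The median H3K4me1 height over all libraries was 290 at the catecholamine and granule genes and 119 at the mesenchymal genes, and its part in the difference in cover was not tested.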

How the data were processed

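Per the labels and the study's methods, the authors trimmed reads with Trim Galore 0.4.4, aligned them to hg19 with BWA 0.7.12, removed duplicates with Picard 1.65, kept properly paired, uniquely mapped fragments with SAMtools 1.3.1, and called islands with SICER 1.1 and narrow peaks with MACS2 library by library, without pooling replicates (tool versions are those in the submitters' processing notes). The deposited island lists give a score per island, used only to rank islands. The deposited narrow peak lists give the fold enrichment as a ratio and −log10 p and −log10 q per peak. Reads per region were not used here, and the scaling by E. coli reads and the region tests of the authors were not used.

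The last base of an island was counted as inside it. Starts were 53429 starts of basic protein-coding transcripts in the GENCODE 44 annotation lifted to GRCh37. The tags at a summit were solved from its fold and −log10 p, which succeeded for at least 99.98% of peaks in every library, and divided by the lowest common background. Tests were exact permutations over libraries, and the steps were tested on simulated data. Region members, gene lists and comparisons were chosen with earlier results of these data known. Genes were named by rule: those nearest to the most regions, all adrenergic factors and study genes, those nearest to the 10 highest regions and to up to 10 regions that gained H3K27me3 per contrast, and examples from the other lists. Computation used Python 3.11.15, NumPy 2.4.6 and pandas 2.3.3. Some genes and the sequence windows that go with them are not reported here.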

Additional observations from a re-analysis of the deposited data

Results flagged for a closer look

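Comparisons between region classes within a library differed between the experiments. They were flagged because p was below 0.05 or because the experiments had opposite signs, so their p-values are no independent support. They lie outside the 7 adjusted tests of H3K27me3 and were not adjusted. Each group of 4 libraries pools controls and treated libraries. For the difference in H3K27me3 cover between the distal regions of all 8 libraries and distal stretches called in 1 to 7 libraries, the compound experiment exceeded the knockdown experiment by 62.9 percentage points. It ran from 54.3 to 75.5 points in the 4 compound libraries and from -0.925 to -0.423 points in the 4 knockdown libraries, so every library of one experiment went one way and every library of the other the opposite way (exact two-sided permutation test, 4 against 4 libraries, p = 0.0286, the smallest it can give). For the difference from promoter-near regions the gap between experiments was 6.19 points, with -8.66 to 0.247 points in the compound libraries and -12.0 to -11.6 points in the knockdown libraries (same exact permutation test, p = 0.0286). Without GSK-J4 replicate 1 the gaps were 58.4 and 4.27 points.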

How the results depend on the processing

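Under other settings 88 values kept their direction and side of 0.05 or stayed near the reported value, and 9 did not. For tests of 2 against 2 libraries or of 2 pairs the side of 0.05 was fixed in advance, so only direction counted there. Size could still change: the GSK-J4 difference in cover, 16.5 points as reported, counted as kept at 3.36 points. A count of 3373 regions, with a start distance of 20 kb, passed as near 4745. The number of regions was 7509 with a least length of 1 kb, 897 with 5 kb and 2697 with H3K4me1 islands taken by score to an equal covered length of 67.4 Mb, and 4767 to 5035 when 1 H3K4me1 library was left out. It was 4213 with island ends read as half-open, a setting chosen after seeing the data, as were the values within the compound experiment without GSK-J4 replicate 1, the comparison of control libraries alone (61.8 points for the compound against the knockdown experiment, p = 0.33 by exact permutation), the 3303 regions with an H3K4me1 summit in all 8 libraries (77.3 points for the same comparison) and distal regions with no stretch called in all 8 (which the regions exceeded by 32.5 points). The H3K27me3 difference of siKDM6B33 from siCtrl turned to -0.31 points at an equal covered length of H3K27me3 islands, where that of GSK-J4 from DMSO was 12.4 points (p = 0.667, exact permutation), and the cause was not tested. The difference from promoter-near regions was -4.30 points at a least length of 5 kb (p = 0.0859, exact permutation), where GSK-J4 exceeded DMSO by 3.36 points and knockdown exceeded siCtrl by 1.21 points in cover and 3.79 points in narrow peaks. Over all regions the knockdown difference in narrow peaks was 0.221 points when peaks had to reach a −log10 q of 5 (p = 0.667, exact permutation). The ratio of siKDM6B33 to siCtrl in H3K4me1 was 0.974 by highest fold enrichment (0.653 as reported) and 0.966 for island width at an equal covered length (0.783 as reported), and the ratio of GSK-J4 to DMSO was 0.960 by highest fold enrichment (0.859 as reported).

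Leaving out 1 H3K27me3 library at a time gave 0.553 to 0.705 points for knockdown cover, 9.25 to 23.7 points for GSK-J4 cover, 64.6 to 73.2 points between experiments, -9.90 to -8.15 points against promoter-near regions, 24.4 to 35.3 points against distal stretches of 1 to 7 libraries, and 0.717 to 2.55 and 11.7 to 27.04 points for narrow peaks in the knockdown and compound experiments. The lowest value of narrow peaks after knockdown came without siKDM6B33 replicate 1. With a replicate block (pairs by replicate number), the differences stayed at 0.629 and 16.5 points for cover and 1.63 and 19.4 points for narrow peaks, each with an exact permutation p of 0.5, the smallest that 2 pairs allow. Nothing in the labels ties equal numbers to a shared culture, and the block changed no call.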
